A study of Homo sapiens with 44 samples.

Results

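The nuclear-encoded subunits of the mitochondrial respiratory chain were taken as 1 group of genes: all protein-coding genes whose symbols mark them as subunits of complex I (NDUFA, NDUFB, NDUFC, NDUFS and NDUFV genes), complex II (SDHA to SDHD), complex III (UQCR genes) or complex IV (the COX4 to COX8 families). NDUFAF assembly factors were left out. The rule used names only and no measured value. It found 69 genes, of which 39 belong to complex I, 4 to complex II, 9 to complex III and 17 to complex IV, among 58735 gene identifiers in the table of the first experiment and 27315 gene symbols in that of the second. NDUFA4 is counted with complex I by its name, although the protein is known as a complex IV subunit. CYC1 and NDUFAB1, which are also parts of these complexes, fall outside the naming rule.

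The RNA libraries came from human triple-negative breast cancer lines given small interfering RNA (siRNA) at 20 nM and harvested at 48 h. In the first experiment MDA-MB-231 cells received siRelA, siRelB or a control siRNA. In the second, siEZH2 was set against control siRNA both in MDA-MB-231 cells and in libraries labelled SUM149. RelA and RelB are DNA-binding subunits of the transcription factor NF-kB, and EZH2 is the enzyme of a Polycomb complex that methylates histone H3. Each of the 7 groups held 2 libraries labelled as replicates, so p-values measure the spread between these libraries only. Every group, controls included, had received an siRNA, and both lines are established tumour lines.

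The respiratory chain passes electrons from NADH and succinate to oxygen and pumps protons across the inner mitochondrial membrane. Complex I accepts electrons from NADH, complex II from succinate, complex III passes them from ubiquinol to cytochrome c, and complex IV passes them to oxygen. Most subunits are encoded in the nucleus and imported, and a small core is encoded by mitochondrial DNA (mtDNA). Several complex IV subunits have paralogs used mainly in muscle, lung or testis. Tumour lines such as these can draw energy from both glycolysis and respiration.

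The count libraries of the first experiment held 18.6 to 24.4 M reads. Normalised counts read back from the variance-stabilised values of the second corresponded to 17.4 to 38.1 M reads per library. The targeted genes checked the labels: RELA went from 3562 and 3391 control counts to 265 and 275 with siRelA, RELB from 923 and 916 to 90 and 107 with siRelB (377 and 295 with siRelA), and EZH2 normalised counts fell from 3022 and 3020 to 368 and 298 in MDA-MB-231 and from 2563 and 2746 to 442 and 517 in the libraries labelled SUM149. SUM149 is known as an E-cadherin-expressing epithelial line. In the control libraries labelled SUM149, CDH1 (E-cadherin) had only 116 and 102 normalised counts, while VIM (vimentin) had 62190 and 64840, CDH2 (N-cadherin) 5064 and 5311, and DCN (decorin, a fibroblast marker) 2024 and 2201. KRT5, a basal keratin, had 1015 and 1027. Of the other epithelial markers there, EPCAM had 1594 and 1460, KRT8 4380 and 3956, KRT18 7851 and 8010, and KRT17 248 and 250. KRT14 had 1.64 and 0. In MDA-MB-231 controls EPCAM had 1410 and 1297, KRT8 13030 and 12750, KRT18 21780 and 20960, KRT17 13.3 and 20.35, and CDH1 24.5 and 23.8. Among the other cell types checked, the 4 striated muscle markers summed to at most 4.74 normalised counts in any library and to at most 0.318 CPM in the first experiment. Of the 4 fibroblast markers, DCN alone was high in the libraries labelled SUM149, and it rose there after siEZH2 to 4626 and 4334 normalised counts. COL1A1 had 184 and 183 normalised counts in MDA-MB-231 controls against 183 and 143 in the controls labelled SUM149, PDGFRB 35.0 and 40.7 against 9.82 and 6.75, and COL3A1 4.73 and 5.09 against 0 and 0. After siEZH2 in MDA-MB-231, PDGFRB rose to 172 and 215, while COL1A1 was at 173 and 162. Among the haematopoietic markers, CD68, a lysosomal protein, rose after siEZH2 from 1424 and 1707 to 3266 and 3331 in MDA-MB-231 and from 1980 and 2427 to 5386 and 5004 in the libraries labelled SUM149. CD3E was at 0 in all 8 libraries and PTPRC reached 2.48 at most. The part of these markers in the results below was not tested. The marker values go in part with the label and in part against it, so the line is named here by its label only.

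Of the 69 subunit genes, 60 passed the filter on low values in the first experiment and 62 in the second. Among paralogs, the ubiquitous forms carried nearly all of the signal. COX4I2 and COX6A2 had 0 counts in all 6 count libraries, and both lay at the table's lowest value in all 8 libraries of the second experiment, whereas COX4I1 had 2768 to 4030 counts. COX8C likewise had 0 counts against 2577 to 3750 for COX8A. COX7A1, a muscle form, reached 11 counts at most, COX6B2 8, NDUFA4L2 4 and COX7B2 2. NDUFA4L2, a paralog of NDUFA4, had 0 normalised counts in both MDA-MB-231 controls, 4.90 and 11.3 in the controls labelled SUM149 and 24.4 and 20.3 after siEZH2 there, all too low to be tested. In the first experiment's controls, CPM (read counts scaled to library size and composition) per kilobase of transcript were highest for NDUFS5 at 294, COX7C and COX7A2 at 286 each, and COX8A at 279, and these neighbours in the order were not tested against each other. SDHA and SDHB, which make up the catalytic part of complex II, lay at 94.3 and 94.5.

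A few subunits were read very differently by the 2 experiments. NDUFV2, a core iron-sulphur subunit of complex I, had 11 to 45 counts per library in the first experiment, yet 2704 to 4431 normalised counts in the second. NDUFA13 had 41 to 53 counts against 1894 to 4074, and NDUFA7 3 to 12 against 507 to 2241. The exons of 7 subunit genes are shared over at least 50% of the length with another annotated gene on the same strand: NDUFA7, NDUFA11, NDUFA13, NDUFB8, NDUFV2, SDHA and NDUFC2-KCTD14. For the 6 of these with a level in both experiments, the control level in the first was lower by a median of 4.14 on the log2 scale (median log2 ratio -4.14), against a median of -0.06 for 55 other subunits, which ranged from -2.80 to 1.52. SDHA went the other way, with a ratio of 0.32. The gap was not confined to these genes: NDUFA9, with 11.7% of its length shared, had 11.9 CPM against 82.9 in the second experiment, a log2 ratio of -2.80, next to -2.79 for NDUFB8. The threshold of 50% was chosen after the levels were seen. The rule for reads shared between genes is not stated, so levels and changes of these genes in the first experiment are uncertain. UQCRH and UQCRHL are near-identical copies and can share reads, and named pseudogenes of SDHA held 5556 counts over the 6 libraries.

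**Figure D1:**
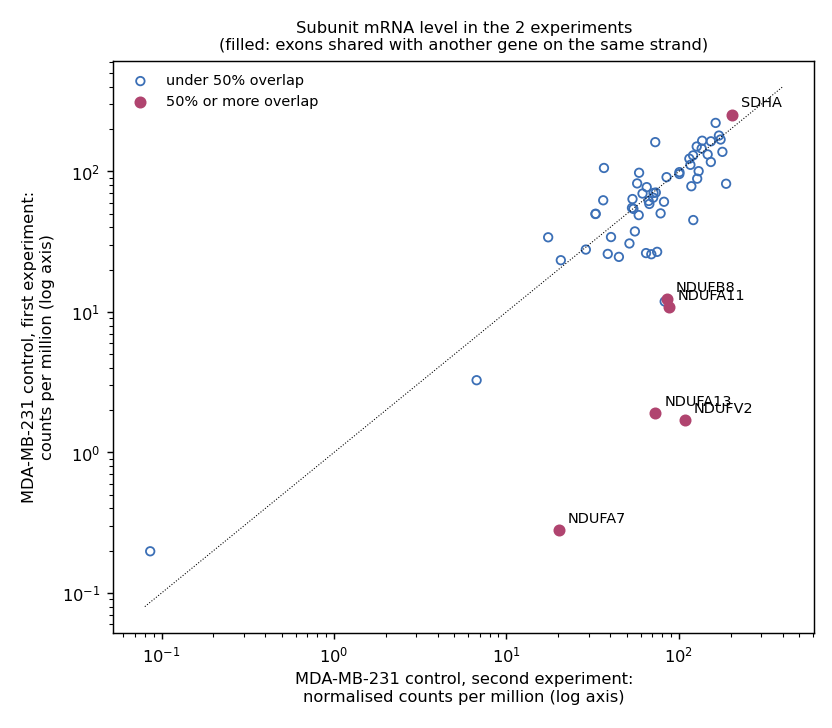
Level of subunit mRNAs in MDA-MB-231 control libraries, as CPM in the first experiment (vertical, log axis) against normalised counts scaled in the same way in the second (horizontal, log axis); each point is 1 gene and the dotted line marks equality. NDUFV2, NDUFA13, NDUFA7, NDUFA11 and NDUFB8, which share exons with another gene, lie below the line, and SDHA lies slightly above it (log2 ratio 0.32).

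Under siRelA, 4 of the 60 tested subunits changed. NDUFA5, COX4I1 and UQCRFS1 fell and NDUFB5 rose. That was 6.67% of the subunits, against 19.0% of all 15930 genes tested; 8.82% of all genes rose and 10.2% fell. The median change over the tested subunits was -0.04, against 0.02 over all genes (log2).

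NDUFA5 is an accessory subunit of the matrix arm of complex I, encoded on chromosome 7. Its control libraries held 1099 and 1183 counts, and its siRelA libraries 692 and 695. The groups did not overlap, and the share of all genes separated in this way was not counted. CPM was 49.8 ± 3.42 against 29.8 ± 2.55 (SD, n = 2). The change was -0.74 ± 0.12 (log2 ± SE, edgeR adjusted p = 0.000241), a 1.67-fold fall. It was called in all 15 alternative fits.

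COX4I1, the ubiquitous form of the largest nuclear-encoded complex IV subunit, had 166 and 165 CPM in the controls and 112 and 137 under siRelA. It fell by 0.41 ± 0.10 (edgeR adjusted p = 0.00987). The call was lost without siRelA replicate 1, where the change was -0.29 (adjusted p = 0.0851). UQCRFS1, the Rieske iron-sulphur protein of complex III, had 170 and 158 CPM in the controls and 128 and 143 under siRelA (-0.27 ± 0.09, edgeR adjusted p = 0.0406). NDUFB5, of the complex I membrane arm, had 65.6 and 57.7 CPM in the controls and 73.5 and 80.6 under siRelA (0.32 ± 0.11, edgeR adjusted p = 0.0483). The UQCRFS1 call was lost when siRelA replicate 1 or either control library was left out (adjusted p = 0.205, and 0.263 and 0.0658), and the NDUFB5 call without any 1 of the 4 libraries (adjusted p from 0.0631 to 0.369), with the replicate number as a block (0.0580) and with DESeq2 size factors (0.0532). Under the block no subunit was called higher with siRelA.

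The other core subunits did not pass the test under siRelA. NDUFV2, with its few counts, had the most negative value of all subunits, -0.78, and did not pass either. NDUFS1 and NDUFV1 of complex I had changes of -0.22 ± 0.09 and -0.17 ± 0.09. UQCRC1 of complex III had a change of -0.24 ± 0.08 (edgeR adjusted p = 0.0536), SDHB -0.18 ± 0.09, COX5A -0.15 ± 0.11 and SDHA 0.00 ± 0.09. All 9 complex III subunits had negative values, from -0.27 to -0.01. The 2 siRelA libraries differed from each other. The median deviation of the subunits from their mean over the experiment was -0.24 in replicate 1 and 0.08 in replicate 2, and for 2081 genes with transcripts under 1000 bases it was -0.14 and 0.07. Without siRelA replicate 2 the subunits' median change was -0.23, and the number of subunits called also depended on single libraries. Of the 69 subunits, 43 have a transcript under 1000 bases. With the trend of each library on transcript length removed, 7 subunits were called under siRelA (2 higher and 5 lower), and their median was -0.02.

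**Figure D2:**
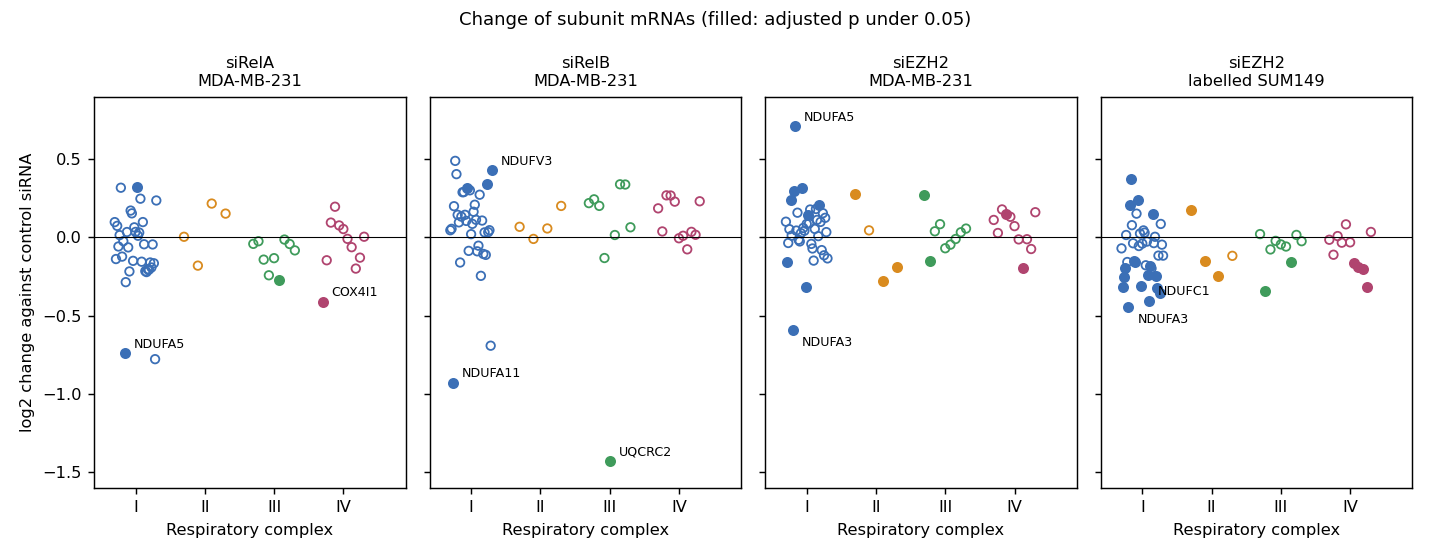
Change of tested subunit mRNAs (log2 against control siRNA, vertical) by complex (horizontal) in the 4 knockdowns; filled points passed adjusted p under 0.05. UQCRC2 at -1.43 under siRelB lies below every other point, and NDUFA5 is filled in 3 of the 4 panels.

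Under siRelB, UQCRC2 showed the largest change of any tested subunit in the 4 knockdowns. In all, 5 of 60 subunits changed, 8.33%, against 18.3% of all genes tested (7.45% rose and 10.8% fell). UQCRC2 and NDUFA11 fell, and NDUFV3, NDUFS7 and NDUFB11 rose. The median over the subunits was 0.09, against 0.01 over all genes.

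UQCRC2 encodes core protein 2, a structural subunit of complex III. It lies on chromosome 16 at 21953288 to 21983660 of GRCh38 (GENCODE v44). Control libraries held 2702 and 2412 UQCRC2 counts, siRelA libraries 2482 and 2263, and siRelB libraries 819 and 782. Both siRelB libraries lay far below the other 4, and the share of all genes separated in this way was not counted. CPM was 112 ± 7.09 in the controls and 41.5 ± 2.81 under siRelB (SD, n = 2), a 2.69-fold fall (-1.43 ± 0.10, edgeR adjusted p = 7.4e-08). The call was made in all 15 alternative fits. UQCRC1, its partner core protein, had 234 and 209 CPM in the controls and 197 and 208 under siRelB (-0.13 ± 0.08, edgeR adjusted p = 0.309). The other tested complex III subunits had values from -0.13 to 0.34 and none passed the test. Whether the siRNA against RelB has a match in UQCRC2 mRNA was not tested.

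NDUFA11, of the complex I membrane arm, went from 234 and 263 control counts to 84 and 137 with siRelB, and siRelA libraries held 184 and 340 (-0.93 ± 0.29, edgeR adjusted p = 0.0345). It is one of the genes that share exons with a neighbour, and its call was lost with robust dispersion (adjusted p = 0.0557) and when siRelB replicate 1 or either control library was left out (adjusted p from 0.0614 to 0.188). NDUFV3, an accessory subunit of the NADH-binding module, rose from 32.3 and 29.1 CPM to 42.2 and 40.7 (0.43 ± 0.12, edgeR adjusted p = 0.0149). NDUFS7, a core iron-sulphur subunit, rose from 33.5 and 34.5 CPM to 43.2 and 43.0 (0.34 ± 0.11, edgeR adjusted p = 0.0456). Genes on the opposite strand overlap 51.3% of its length, and the strand setting is not stated, so its counts are uncertain. NDUFB11, of the membrane arm, rose from 83.1 and 71.7 CPM to 94.8 and 97.9 (0.32 ± 0.10, edgeR adjusted p = 0.0387). For each of these 3 genes the control and siRelB libraries did not overlap, and the share of all genes separated in this way was not counted. The NDUFS7 call was lost without any 1 of the 4 libraries (adjusted p from 0.145 to 0.245) with the replicate number as a block (adjusted p = 0.0586), with the length trend removed (0.0668, and 0.0693 with the block) and with no filter on low counts (0.107). The NDUFV3 and NDUFB11 calls were each lost without control replicate 2, siRelB replicate 1 or siRelB replicate 2 (adjusted p from 0.0509 to 0.374). Core subunits NDUFS1 (-0.25 ± 0.09), NDUFV1 (0.05 ± 0.09), SDHA (0.07 ± 0.09), SDHB (-0.01 ± 0.09), UQCRFS1 (0.02 ± 0.09), COX4I1 (0.19 ± 0.10) and COX5A (0.04 ± 0.11) did not pass. The number of subunits called depended on single libraries. With each left out in turn, the subunits' median change ran from -0.03 to 0.20.

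**Figure D3:**
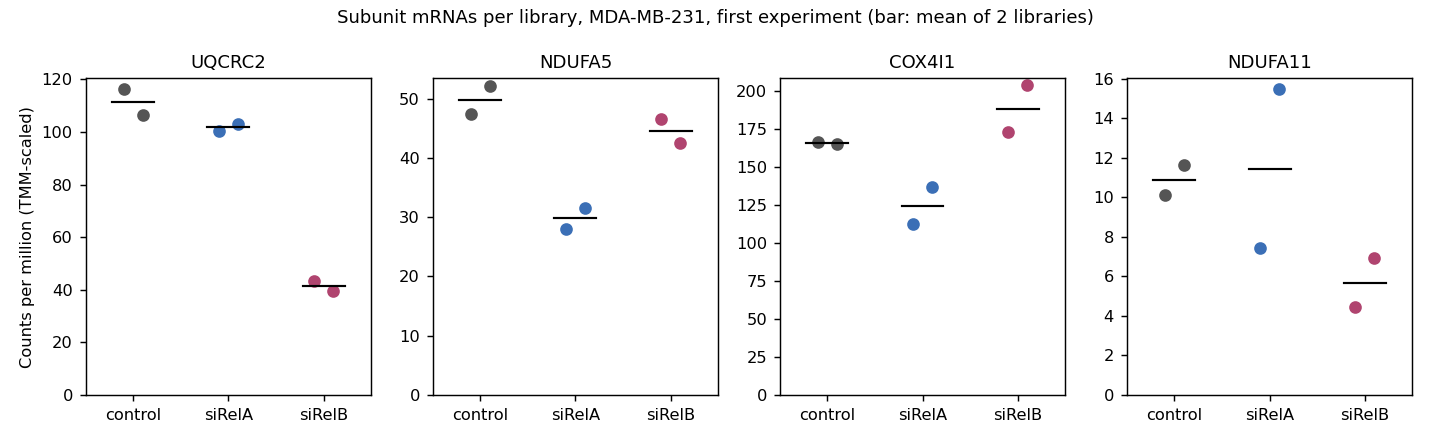
CPM of UQCRC2, NDUFA5, COX4I1 and NDUFA11 in each of the 6 MDA-MB-231 libraries of the first experiment; points are libraries and bars are means of 2. UQCRC2 is at 41.5 CPM on average under siRelB against 112 in the controls, and NDUFA5 at 29.8 under siRelA against 49.8.

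Promoter windows were read for the subunits because the knockdowns target a DNA-binding factor and a chromatin enzyme. RefSeq (GRCh38.p14) gave a window of 300 bases, 250 before and 50 after the start, for 56 of the 69 genes; the other 13 had no entry. The stretches below belong to subunits that changed in these comparisons, written 5′ to 3′ on the gene's strand, with the matched word in capitals.
UQCRC2, chr16:21953338-21953367, plus strand: gggaacgctGGGAAACTCCCggcctccgcc
NDUFS7, chr19:1383794-1383823, plus strand: aaagcgcagcGGAACCTCCCggctccaggt
NDUFA11, chr19:5903869-5903898, minus strand: ccggtccccgGCGCGTGCGCgcgatccatg
UQCRFS1, chr19:29213163-29213192, minus strand: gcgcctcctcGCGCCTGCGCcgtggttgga
COX4I1, chr16:85799686-85799715, plus strand: ggccttgctctCTTCCGGtcgcgggacacc
NDUFA3, chr19:54102865-54102894, plus strand: ccgcggagacaAAGATGGCtgcgagtaagt
The capitals mark the NF-kB consensus in UQCRC2 (2 overlapping matches) and NDUFS7, the NRF1 word in NDUFA11 and UQCRFS1, the ETS word in COX4I1 and the YY1 word in NDUFA3. The UQCRC2 match begins 14 bases before the RefSeq start, and other GENCODE transcripts of the gene start upstream of it.

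These matches must be read against how often such words occur and how many were tried. In all, 12 spellings of words for 6 factors were searched on both strands, 4 of them for NF-kB, with the expression results already known. The NF-kB consensus occurred in 7 of 56 subunit promoters, 12.5%, and in 16.0% of all 15306 protein-coding genes with an entry. The other 3 NF-kB spellings were found in 1 subunit (GGGNNTTTCC, in 2.6% of all genes), in 2 (GGGANNNCCC, 11.4%) and in 3 (a narrower consensus, 8.4%). UQCRC2 held 3 of the 4 spellings, which overlap one another. None of the 4 was found in the promoters of NDUFA5, COX4I1, UQCRFS1, NDUFA11, NDUFV3 or NDUFB11, which also changed under siRelA or siRelB. Words of factors known for respiratory genes had the shares 25.0% of subunits against 14.0% of all genes for NRF1 (GCGCNNGCGC), 26.8% against 16.7% for ETS (CCGGAAG), 16.1% against 4.7% for YY1 (AAGATGGC) and 5.4% against 3.1% for CRE (TGACGTCA). Stricter or shifted spellings gave 5.4% against 2.0% for NRF1 (GCGCATGCGC), 14.3% against 7.1% for ETS (CCGGAAGT) and 10.7% against 3.2% for YY1 (CAAGATGG), and the SP1 word GGGCGG gave 60.7% against 65.1%. A match is a description of letters and not a bound site, and the chromatin libraries of the series were not analysed here.

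Compared directly, siRelA and siRelB libraries differed in 9 of 60 subunits, 15.0%, against 29.9% of all genes tested (16.0% higher and 14.0% lower under siRelA). UQCRC2 and NDUFA11 were higher under siRelA, and 7 subunits were lower: COX4I1, NDUFA5, NDUFS7, NDUFA6, UQCRB, NDUFS3 and UQCRFS1. UQCRC2 was higher by 1.29 ± 0.10 (edgeR adjusted p = 7.6e-08). COX4I1, at 112 and 137 CPM under siRelA and 173 and 203 under siRelB, was lower by 0.60 ± 0.10 (change -0.60, edgeR adjusted p = 0.000356). NDUFA5, at 692 and 695 against 879 and 842 counts, had a difference of -0.58 ± 0.12 (edgeR adjusted p = 0.00127), and NDUFS7, at 28.6 and 31.0 against 43.2 and 43.0 CPM, -0.53 ± 0.11 (edgeR adjusted p = 0.00197). Those 4 calls were made in every alternative. NDUFA11 was higher under siRelA by 1.00 ± 0.29 (edgeR adjusted p = 0.0149), a call lost without siRelA replicate 2 (adjusted p = 0.313) or siRelB replicate 1 (adjusted p = 0.102). NDUFA6 (-0.42 ± 0.12), UQCRB (-0.34 ± 0.11), NDUFS3 (-0.33 ± 0.11) and UQCRFS1 (-0.29 ± 0.09) completed the calls. The calls of NDUFA6, UQCRB, NDUFS3 and UQCRFS1 were each lost without siRelA replicate 1, and also without siRelB replicate 2. Their differences in those fits ran from -0.32 to -0.15. Of the core subunits, NDUFS1 (0.03 ± 0.09), NDUFV1 (-0.21 ± 0.09), SDHA (-0.06 ± 0.09), SDHB (-0.17 ± 0.09), UQCRC1 (-0.11 ± 0.08) and COX5A (-0.18 ± 0.11) did not pass.

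The number of subunits called in this direct comparison depended on single libraries. The median deviation of the subunits from their mean over the experiment was -0.24 and 0.08 in siRelA replicates 1 and 2. In siRelB replicates 1 and 2 it was -0.04 and 0.21. With each library left out in turn, the subunits' median difference ran from -0.31 to -0.01. With all libraries it was -0.16, against 0.01 over all genes, and 47 of 60 values were negative. Cytosolic ribosome genes had a median of -0.24, with 32 of 78 lower and 0 higher. Mitochondrial ribosome genes had -0.20, with 22 of 78 lower and 4 higher, and ATP synthase subunits -0.18, with 2 of 18 lower and 0 higher. In that order, 41.0%, 28.2% and 11.1% were lower, against 14.0% of all genes. All 2081 genes with transcripts under 1000 bases had a median of -0.12. With the length trend removed, the subunits' median difference was -0.08, and 13 were called (3 higher and 10 lower).

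Of the mtDNA-encoded respiratory mRNAs, MT-ATP6 and MT-ATP8 encode subunits of ATP synthase, and the others encode subunits of complexes I, III and IV. By edgeR's quasi-likelihood test, 0 of 13 passed under siRelA, siRelB or between them. Their medians were 0.01, -0.03 and 0.04. At an unadjusted p under 0.05 there was 1 of 13 under siRelA, 1 under siRelB and 0 between them, and DESeq2's Wald test called 1 of 13 under siRelB and 0 in the other comparisons. The 13 mtDNA-encoded mRNAs held 3.30% to 4.21% of all reads, against 0.413% to 0.532% for the 69 nuclear subunits together. mtDNA-encoded mRNAs of the second experiment were not analysed here. Among the regulators of mitochondrial gene expression, TFAM, the mtDNA packaging and transcription factor, rose under siRelA (0.48 ± 0.09, edgeR adjusted p = 0.00129) and siRelB (1.06 ± 0.09, edgeR adjusted p = 5.8e-07). GABPA, the DNA-binding part of the ETS-family factor NRF2, fell under siRelB (-0.88 ± 0.17, edgeR adjusted p = 0.00149), while GABPB1, its partner subunit, rose (0.41 ± 0.11, edgeR adjusted p = 0.0167). MYC fell under siRelA (-0.46 ± 0.09, edgeR adjusted p = 0.00227). CYC1, the complex III subunit outside the naming rule, rose in both (0.43 ± 0.09 and 0.60 ± 0.09, edgeR adjusted p = 0.00278 and 0.000216). The comparisons with siRelA and siRelB share their control libraries. Of 16 complex I assembly genes, 1 rose and 0 fell under siRelA (6.25% rose) and 2 rose and 0 fell under siRelB (12.5% rose). Of 34 assembly genes of complexes II to IV, 3 fell and 0 rose under siRelA, and 3 rose and 0 fell under siRelB; 3 of 34 is 8.82%, near the shares of all genes (10.2% fell under siRelA and 7.45% rose under siRelB). The tricarboxylic acid (TCA) cycle feeds the chain with NADH and succinate. Of its 14 genes, 3 fell under siRelA (21.4%) and 2 under siRelB (14.3%), and 0 rose in either. Among 18 ATP synthase subunits 1 rose (5.56%) and 0 fell in each. Of all genes, 8.82% rose and 10.2% fell under siRelA, and 7.45% rose and 10.8% fell under siRelB.

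After siEZH2 in MDA-MB-231 cells, 10 of 62 tested subunits rose and 7 fell. That was 27.4% of the subunits, against 56.6% of all 12356 genes tested, of which 29.4% rose and 27.1% fell. The median change was 0.04, against 0.00 over all genes. Changes here are on the variance-stabilised log2 scale, which understates the fold of genes with few reads, and per-library values are normalised counts.

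NDUFA5 rose the most, from 878 and 856 to 1523 and 1635 (0.71 ± 0.05, limma adjusted p = 1.8e-07), 1.82-fold in normalised counts. NDUFB10, of the membrane arm, rose from 882 and 857 to 1136 and 1143 (0.31 ± 0.07, limma adjusted p = 0.00140). NDUFA4, a subunit found in complex IV despite its name, rose from 2670 and 2651 to 3296 and 3373 (0.30 ± 0.05, limma adjusted p = 0.000345). In all 3 genes both siEZH2 libraries lay above both controls, a separation whose share over all genes was not counted. SDHA, the flavoprotein of complex II, rose from 5184 and 5537 to 6239 and 6886 (0.28 ± 0.06, limma adjusted p = 0.00160), and UQCR10, a small complex III subunit, from 1969 and 2168 to 2474 and 2614 (0.27 ± 0.07). NDUFA13, NDUFS4, COX6A1 and NDUFB5 also rose, by 0.24 to 0.15.

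NDUFA3, a small membrane-arm subunit of complex I on chromosome 19, fell the most. It went from 733 and 792 to 402 and 458 normalised counts (-0.59 ± 0.07, limma adjusted p = 9.9e-06), a 1.77-fold fall in normalised counts. NDUFB3 fell from 1478 and 1457 to 1140 and 1116 (-0.32 ± 0.05, limma adjusted p = 0.000260). Both membrane anchors of complex II fell, SDHC from 965 and 978 to 836 and 683 (-0.28 ± 0.08) and SDHD from 5167 and 4761 to 4302 and 4314 (-0.19 ± 0.05), while SDHA rose. The SDHC call was lost without control replicate 2 (change -0.27) or siEZH2 replicate 2 (-0.17). The SDHD call was lost without control replicate 1 (-0.14), and SDHD did not pass in the libraries labelled SUM149. COX7A2L, known for its role in respiratory supercomplexes, fell from 3100 and 3138 to 2704 and 2667 (-0.20 ± 0.06), and NDUFA10 and UQCR11 had changes of -0.15 each. The other core subunits, NDUFS1 (0.11 ± 0.05), NDUFV1 (0.13 ± 0.06), SDHB (0.05 ± 0.06), UQCRFS1 (-0.05 ± 0.06), UQCRC1 (0.08 ± 0.07), COX4I1 (0.11 ± 0.07) and COX5A (0.03 ± 0.06), did not pass. Of the 17 calls, 7 were made in every alternative, among them NDUFA3, NDUFA4, NDUFA5, NDUFB3, NDUFB10 and SDHA, and 10 were lost when some 1 library was left out. With each library left out in turn, the subunits' median change ran from -0.01 to 0.10. Of 18 ATP synthase subunits 6 rose and 1 fell, and of 34 assembly genes of complexes II to IV 5 rose and 11 fell. Of 16 complex I assembly genes 3 rose and 3 fell, and of 14 TCA cycle genes 3 rose and 4 fell. In that order, the rises were 33.3%, 14.7%, 18.75% and 21.4% of the list, against 29.4% of all genes. The falls were 5.56%, 32.35%, 18.75% and 28.6%, against 27.1% of all genes. Of 13 regulators of mitochondrial gene expression 2 rose and 7 fell, TFAM among the latter. The falls were 53.85% of the regulators, against 27.1% of all genes.

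In the libraries labelled SUM149 after siEZH2, 21 of 62 subunits fell and 6 rose, 43.5% in all, against 58.0% of all genes tested. The falls were 33.9% of the subunits, against 28.6% of all genes. The rises were 9.68% of the subunits, against 29.4% of all genes. The median was -0.06, against 0.00 over all genes. By complex, 13 of 38 tested complex I subunits fell and 5 rose, 2 of 4 in complex II fell and 1 rose, 2 of 9 in complex III fell, and 4 of 11 in complex IV fell. NDUFA4, which rose, is counted here with complex I by its name.

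NDUFA5 again rose the most, from 2077 and 2005 to 2726 and 2710 normalised counts (0.37 ± 0.05, limma adjusted p = 6.3e-05). NDUFB10 (0.24 ± 0.07), NDUFA4 (0.21 ± 0.05), SDHA (0.18 ± 0.06) and NDUFS1 (0.15 ± 0.05) also rose. NDUFA3 again fell the most, from 400 and 402 to 257 and 224 (-0.44 ± 0.07, limma adjusted p = 0.000116), a 1.67-fold fall in normalised counts. NDUFC1, a small complex I subunit, fell from 940 and 892 to 617 and 649 (-0.41 ± 0.06, limma adjusted p = 0.000103). NDUFS8, a core iron-sulphur subunit, fell from 3037 and 2595 to 2299 and 1986 (-0.36 ± 0.08, limma adjusted p = 0.00194). In these 3 falling genes no siEZH2 library reached a control library, and the share of all genes with such a separation was not counted. UQCR11 fell from 1854 and 1733 to 1351 and 1369 (-0.34 ± 0.06), NDUFS6 from 1375 and 1281 to 1034 and 984 (-0.33 ± 0.07), and NDUFA10 from 2372 and 2421 to 1920 and 1822 (-0.32 ± 0.05). SDHB was called at -0.15 ± 0.06 (limma adjusted p = 0.0464), a call that only 5 of 19 alternatives made. The other core subunits, NDUFV1 (0.09 ± 0.06), UQCRFS1 (-0.06 ± 0.06), UQCRC1 (-0.02 ± 0.07), COX4I1 (-0.01 ± 0.07) and COX5A (-0.11 ± 0.06), did not pass.

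The balance of falls and rises in these libraries was set beside transcript length, whose part in it was not tested. Genes with transcripts under 1000 bases, 800 of those tested, had a median of -0.12. With the trend of each library on transcript length removed, 12 subunits rose and 12 fell, and their median was 0.01. That step shifts genes by transcript length by construction. Of the 27 calls, 9 were made in every alternative: NDUFA3, NDUFA5, NDUFA10, NDUFB3, NDUFC1, NDUFS6, NDUFS8, UQCR11 and COX7C. The number of subunits called depended on single libraries, and their median change with each left out ran from -0.10 to -0.05. Ribosomal genes moved in the same libraries. Of 77 cytosolic ribosome genes 53 fell and 0 rose (median -0.25), and of 78 mitochondrial ribosome genes 45 fell and 2 rose (median -0.21). The falls were 68.8% and 57.7% of these lists, against 28.6% of all genes. Of 34 assembly genes of complexes II to IV 18 fell and 0 rose, and of 16 complex I assembly genes 8 fell and 3 rose. Of 18 ATP synthase subunits 8 fell and 1 rose, and of 14 TCA cycle genes 3 fell and 5 rose. In that order, the falls were 52.9%, 50.0%, 44.4% and 21.4% of the list, against 28.6% of all genes. The rises were 0%, 18.75%, 5.56% and 35.7%, against 29.4% of all genes. Of 13 regulators of mitochondrial gene expression 8 fell, TFAM among them, and 1 rose. The falls were 61.54% of the regulators, against 28.6% of all genes. In MDA-MB-231 after siEZH2 the ribosomal counts were 37 fallen and 2 risen of 77, and 32 fallen and 6 risen of 78. There the falls were 48.05% and 41.03%, against 27.1% of all genes.

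Across both lines, 5 subunits rose in both after siEZH2 (among them NDUFA4, NDUFA5, NDUFB10 and SDHA), 6 fell in both (NDUFA3, NDUFA10, NDUFB3, SDHC, UQCR11 and COX7A2L), and 0 were called in opposite directions. These were 8.06%, 9.68% and 0% of the 62 subunits, against 19.9%, 18.8% and 1.58% of all 12356 genes tested. Of the subunits called in both lines, NDUFA3, NDUFA5 and NDUFB3 were called in every alternative in both. Each of the others lost its call under some alternative in MDA-MB-231, in the libraries labelled SUM149 or in both. The difference between the lines was tested as the interaction term of the limma fit. It was called in 3 of 62 subunits, 4.84%, against 21.5% of all genes tested (11.2% higher and 10.4% lower in the libraries labelled SUM149). The 3 called values were lower there: NDUFS5 (-0.35 ± 0.09, limma adjusted p = 0.0165), NDUFA5 (-0.34 ± 0.08, limma adjusted p = 0.00687) and COX7C (-0.24 ± 0.07, limma adjusted p = 0.0243). Of 62 subunits, 51 had a lower value in the libraries labelled SUM149, with a median difference of -0.13, against -0.01 for all genes and -0.10 for genes with transcripts under 1000 bases. The count of called subunits depended on single libraries. With each left out in turn, the median difference ran from -0.17 to -0.09. Among core subunits the differences ran from SDHB at -0.19 ± 0.08 to NDUFS1 at 0.04 ± 0.07, and none of the 8 passed. With the length trend removed that median was -0.06, and the calls of NDUFS5 and COX7C were lost (adjusted p = 0.0649 and 0.138).

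**Figure D4:**
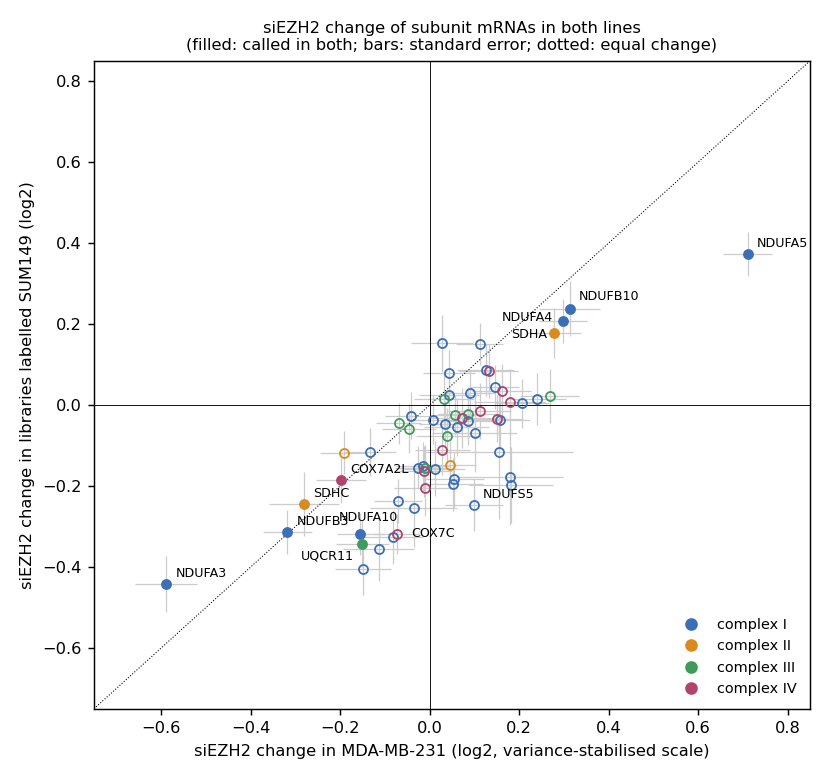
siEZH2 change of 61 tested subunits in MDA-MB-231 (horizontal) and in the libraries labelled SUM149 (vertical), in log2 units of the variance-stabilised scale, with standard errors; filled points were called in both lines and the dotted line marks equal change. NDUFA5 is at the upper right, NDUFA3 at the lower left, and 50 of 61 points lie below the dotted line.

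Between the control libraries of the lines, 37 of 62 subunits were higher and 10 lower in the libraries labelled SUM149. That was 75.8% called, against 82.8% of all genes tested (41.3% higher and 41.5% lower). The median difference was 0.29, against 0.00 over all genes. By complex, 22 of 38 complex I subunits were higher and 8 lower, 1 of 4 in complex II was higher, 6 of 9 in complex III were higher and 1 lower, and 8 of 11 in complex IV were higher and 1 lower.

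NDUFB9, of the membrane arm, had 1071 and 1063 normalised counts in MDA-MB-231 and 4325 and 4714 in the libraries labelled SUM149, a 4.24-fold difference (1.85 ± 0.05, limma adjusted p = 1.1e-12). NDUFA7 had 507 and 555 against 2096 and 2217 (1.63 ± 0.07, limma adjusted p = 3.4e-11). NDUFA9, a matrix-arm subunit, had 2167 and 2204 against 6307 and 6693 (1.46 ± 0.05, limma adjusted p = 7.8e-12). These 3 complex I genes were the most unequal of those that were higher. SDHB, the iron-sulphur subunit of complex II, had 2719 and 2597 against 6388 and 6333 (1.18 ± 0.06, limma adjusted p = 2.7e-10), while SDHA had 5184 and 5537 against 5026 and 4918 and did not pass (-0.10 ± 0.06, limma adjusted p = 0.134). UQCRH, the hinge protein of complex III, was higher by 1.13 ± 0.06, COX5B by 1.06 ± 0.08, COX5A by 1.02 ± 0.06, COX4I1 by 0.83 ± 0.07, NDUFV1 by 0.80 ± 0.06, UQCRC1 by 0.54 ± 0.07 and NDUFS1 by 0.48 ± 0.05.

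NDUFB2, a small membrane-arm subunit on chromosome 7, went the other way. It had 1873 and 1892 normalised counts in MDA-MB-231 and 649 and 685 in the libraries labelled SUM149, 2.82-fold lower (-1.22 ± 0.07, limma adjusted p = 7.5e-10). NDUFA3 (-0.65 ± 0.07), NDUFB1 (-0.59 ± 0.07), NDUFS4 (-0.58 ± 0.06), NDUFB6 (-0.37 ± 0.06), NDUFB11 (-0.35 ± 0.07), NDUFV3 (-0.27 ± 0.06), NDUFB8 (-0.21 ± 0.06), COX7A2 (-0.17 ± 0.06) and UQCRFS1 (-0.16 ± 0.06) were also lower. NDUFB2 and NDUFB9 thus lay at opposite ends within the same arm of complex I. Of the 47 calls, 42 were made in every alternative. The lists beside the subunits moved too: 53 of 77 cytosolic ribosome genes were higher and 4 lower, and 12 of 18 ATP synthase subunits were higher and 5 lower. Of all genes, 41.3% were higher and 41.5% lower. The line and any difference in its culture cannot be told apart with these libraries.

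**Figure D5:**
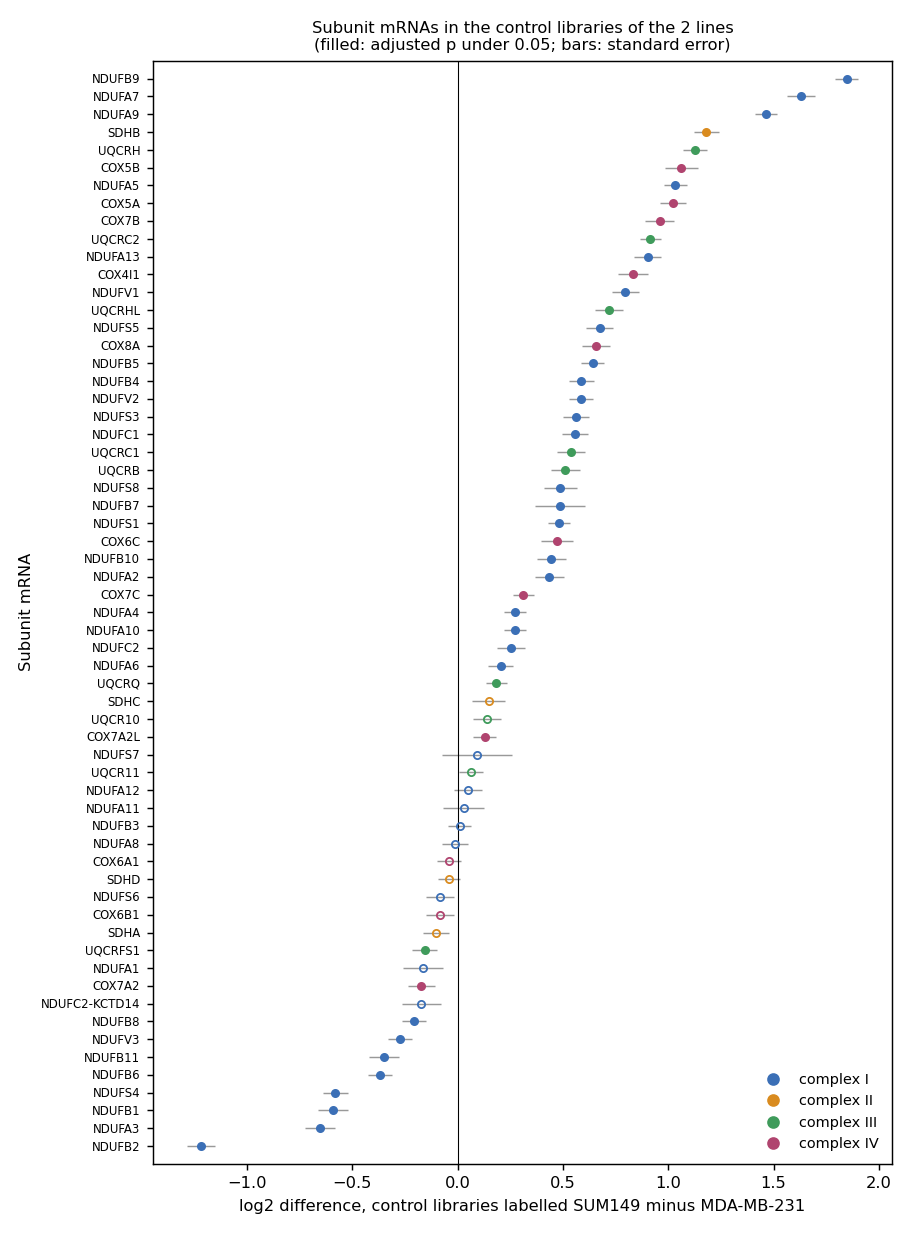
Difference of tested subunit mRNAs between the control libraries labelled SUM149 and those of MDA-MB-231 (horizontal, log2 units of the variance-stabilised scale, with standard errors), sorted by size; filled points passed adjusted p under 0.05. NDUFB9 at 1.85 and NDUFB2 at -1.22 mark the ends of the range.

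Over the 4 knockdowns, 39 of the 69 subunits were called in at least 1 and 30 in none, among them the 7 that were tested in neither experiment. Of the 60 subunits tested in both experiments, 65.0% were called in at least 1 knockdown, 21.7% in at least 2 and 1.67% in at least 3. Of all 11629 genes tested in both, the shares were 82.6%, 55.3% and 21.9%. In 13 subunits the call was made in at least 2 knockdowns, and NDUFA5 was the 1 subunit called in 3: it fell under siRelA and rose after siEZH2 in both lines. Under siRelB its CPM was 46.6 and 42.5 against 47.4 and 52.2 in the controls, which did not pass the test.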

How the data were processed

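The series holds 44 samples, of which the 14 RNA libraries were used and the 30 chromatin libraries were not analysed here. In the first experiment the deposited values are raw whole-number counts per Ensembl gene, and in the second they are log2-scale values per gene symbol after DESeq2's variance-stabilising transformation. The submitters' processing notes list hg19 for both. They list featureCounts 1.5.0-p3, HISAT2 2.0.5 and DESeq2 1.20.0 for the first experiment, and Salmon with STAR 2.5.2b, cutadapt and DESeq2 for the second. No source used here states the strand setting, the annotation release or the rule for shared reads.

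Counts were fitted with edgeR 4.0.16 (quasi-likelihood, TMM, filterByExpr, all 6 libraries, 3 residual degrees of freedom). The log2 values went into limma 3.58.1 (eBayes with a trend, all 8 libraries, 4 residual degrees of freedom), keeping symbols that exceeded the table's floor of 7.12 by 1 or more in 2 or more libraries. Benjamini-Hochberg adjustment ran over all genes tested in a fit, with calls at an adjusted p under 0.05. Normalised counts were read back by inverting the transformation; 83.4% to 85.7% of values up to 4 reads lay within 0.05 of a whole read. Lengths and positions are of GENCODE v44 on GRCh38, with no conversion from hg19. Both fits were tested on simulated data. R was 4.3.3 and Python 3.11.15.

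The members, gene lists, promoter words and some thresholds (50% overlap, transcripts under 1000 bases) were chosen with earlier results of these data known. Named per comparison were up to 6 members with the largest called rise and fall, 8 core subunits (NDUFS1, NDUFV1, SDHA, SDHB, UQCRFS1, UQCRC1, COX4I1, COX5A), paralog pairs and the siRNA targets. Alternatives covered scaling, filters, dispersion, DESeq2's Wald test (1.42.0), transcript length and each library left out. Among the tested subunits, 1 is counted but not reported or drawn here.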

Additional observations from a re-analysis of the deposited data

Results flagged for a closer look

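The siEZH2 change differed between the lines in 3 subunits by the interaction term of the limma fit (change in the libraries labelled SUM149 minus change in MDA-MB-231). For NDUFA5 the difference was -0.34 (adjusted p = 0.00687), since it rose by 0.71 in MDA-MB-231 and 0.37 in the libraries labelled SUM149; this call was made in all 17 alternatives. For NDUFS5 it was -0.35 (adjusted p = 0.0165), with 3477 and 3683 normalised counts before and 3661 and 4053 after siEZH2 in MDA-MB-231, and 5571 and 6196 before and 5038 and 4782 after in the libraries labelled SUM149. For COX7C it was -0.24 (adjusted p = 0.0243), with 4448 and 4569 before and 4201 and 4340 after in MDA-MB-231, and 5581 and 5745 before and 4485 and 4495 after in the libraries labelled SUM149. The NDUFS5 and COX7C calls were made in 11 and 9 of the 17 alternatives.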

How the results depend on the processing

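No result changed direction while called under any alternative run. Settings that moved a summary were these. With the length trend removed, 7 subunits were called under siRelA, with or without the replicate block; the median change under siEZH2 in the libraries labelled SUM149 became 0.01 and the median difference between the lines -0.06, again with or without the block; and with the block added to the length correction, 14 subunits differed between siRelA and siRelB. Quantile normalization moved the median difference of the control lines to 0.23. The cause was not tested. The length correction shifts genes by transcript length by construction, so its result does not test a cause. Leaving out each library in turn gave 2 to 7 subunits called under siRelA (median -0.23 to 0.04), 1 to 7 under siRelB (median -0.03 to 0.20), 5 to 27 between them (median -0.31 to -0.01), 9 to 21 for siEZH2 in MDA-MB-231 (median -0.01 to 0.10), 14 to 28 in the libraries labelled SUM149 (median -0.10 to -0.05), 1 to 10 for the difference of these effects (median -0.17 to -0.09) and 44 to 48 between the lines (median 0.29 to 0.35). A group left with 1 library was assumed to vary like the others. Over all genes, the calls went from 3031 to 1624 and 1786 under siRelA when the first or the second control library was left out, from 2913 to 1754 and 1520 under siRelB likewise, and from 2662 to 1611, 1683 and 1772 for the difference between the lines without MDA-MB-231 control replicate 1, control replicate 2 or SUM149 siEZH2 replicate 2. Uncalled values that changed sign within 1 standard error were counted as the same.

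With the replicate number as a block, 3 subunits were called under siRelA, 5 under siRelB, 10 between them, 19 and 24 after siEZH2 in the lines, 4 for their difference and 47 between the lines. Deviations of same-numbered libraries correlated between -0.207 and 0.088, so the numbers do not show pairs. With the pairing crossed in the libraries labelled SUM149, added after seeing the data, 27 were called there. Counts recovered from the variance-stabilised values, also added after seeing the data, gave 19, 26, 3 and 47 calls with edgeR, and 7424, 7355, 2024 and 11728 over 14691 genes. With 2 libraries a group, small differences cannot be separated from the spread.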
